A study of Mus musculus with 4 samples.

Results

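Genes of oxidative phosphorylation were examined in the ileum, the end of the small intestine, of mice given pregnenolone-16α-carbonitrile (PCN) or vehicle. The genes were chosen by a rule on names that used no measured value, although earlier results of these data were known. It covers genes of the deposited table whose symbols begin with Nduf, Uqcr, Cox4 to Cox8 or Atp5, together with Sdha, Sdhb, Sdhc, Sdhd, Cycs and Cyc1. This rule took 89 of 11489 genes and 179 of 21160 transcripts. By their known roles, 36 belong to complex I, 4 to complex II, 9 to complex III, 16 to complex IV and 14 to complex V. Cycs is the mobile electron carrier, and the other 9 are assembly factors or relatives that carry the same name stem. The nuclear genes Cox4i1 and Atp5g2 and 12 of 13 mitochondrially encoded subunits were not analysed here.

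All mice were 8-week-old wild-type C57BL/6J animals, and no genetic change separated the groups. PCN, a ligand that activates the mouse xenobiotic receptor PXR (Nr1i2), was injected intraperitoneally at 40 mg/kg, dissolved in DMSO and corn oil, 3 times at intervals of 8 h, and the ileum was taken 8 h after the last injection. The vehicle libraries are labelled DMSO. Each group had 2 libraries of total RNA, and the labels do not say whether these came from separate mice, so p-values measure the spread between these libraries, which may be technical. Levels are FPKM, fragments scaled to transcript length and to the size of the library, summed over the transcripts of a gene.

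The inner mitochondrial membrane carries a chain of protein complexes that pass electrons from NADH and succinate to oxygen. Complexes I, III and IV pump protons as they do so, complex II feeds in electrons from succinate without pumping, and complex V uses the returning protons to make ATP. Absorptive cells of the intestine use much of this ATP to drive nutrient and ion transport, and the smooth muscle of the gut wall holds mitochondria of its own. Several complex IV subunits exist as isoforms, with one form in most tissues and another typical of muscle, lung or testis.

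The libraries themselves were similar in these genes. The 89 genes together made up 3.399% and 2.93% of all FPKM in vehicle replicates 1 and 2, and 3.20% and 3.25% in PCN replicates 1 and 2. Markers of ileal absorptive cells and of goblet cells were present in all libraries, but not at equal levels. The 10 absorptive genes summed to 15613 and 13906 FPKM in vehicle and 11091 and 10890 FPKM in PCN. Most of that gap was Fabp6, the ileal bile acid binding protein, with 8059 and 6757 FPKM in vehicle and 4228 and 3652 FPKM in PCN. Of the 10 genes, 5 were lower without overlap, beside 19.1% of all tested genes. In limma 3 were lower at an unadjusted p under 0.05, beside 4.11% of all tested genes, and 0 were called. The 7 goblet cell genes summed to 14982 and 15229 FPKM in vehicle and 15966 and 15329 FPKM in PCN. Of them 3 were higher without overlap, beside 21.1% of all tested genes. In limma 2 were higher at an unadjusted p under 0.05, beside 5.25% of all tested genes, and 0 were called. The 8 lymphocyte and plasma cell genes summed to 675 and 674 FPKM in vehicle and 858 and 904 FPKM in PCN. The 15 smooth muscle genes summed to 483 and 980 FPKM in vehicle and 276 and 345 FPKM in PCN. In whole tissue, fewer cells of a type and less RNA per cell cannot be told apart.

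The oxidative phosphorylation genes kept nearly the same levels after PCN. None of the 87 genes whose mean over the 4 libraries reached 1 FPKM passed an adjusted p of 0.05 in limma, in either direction, against 15 of 11103 tested genes (0.135% of all, with 0.0811% higher and 0.054% lower). Among the 87, 5 had an unadjusted p under 0.05 (5.75%), 2 of them higher and 3 lower in PCN. Over all tested genes this share was 9.36%, with 5.25% higher and 4.11% lower. The 2 PCN libraries lay above both vehicle libraries for 17 of the 87 genes and below both for 20, while these shares were 21.1% and 19.1% of all tested genes.

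The median log2 difference, PCN minus vehicle on the log2(FPKM + 1) scale, was −0.01 over the 87 genes and 0.0029 over all tested genes. The size of the difference, regardless of sign, had a median of 0.058. The median distance between single libraries was 0.078 in vehicle and 0.073 in PCN. Over all tested genes the corresponding medians were 0.139, 0.164 and 0.146. A distance between single libraries is expected to exceed a difference of group means even without an effect, so these sizes are not directly comparable. The difference was under 0.2 in 80 of 87 genes (91.95%), against 64.1% of all tested genes. Abundant genes differed less in general: 75.6% of the 1399 genes that averaged 50 FPKM or more and 95.6% of the 68 oxidative phosphorylation genes at that level were under 0.2. The 95% interval lay within a 1.5-fold change in either direction for 80 of the 87 genes and for 52.9% of all tested genes. The 7 genes whose intervals reached further were low in level or were the complex IV isoforms described further on.

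**Figure D1:**
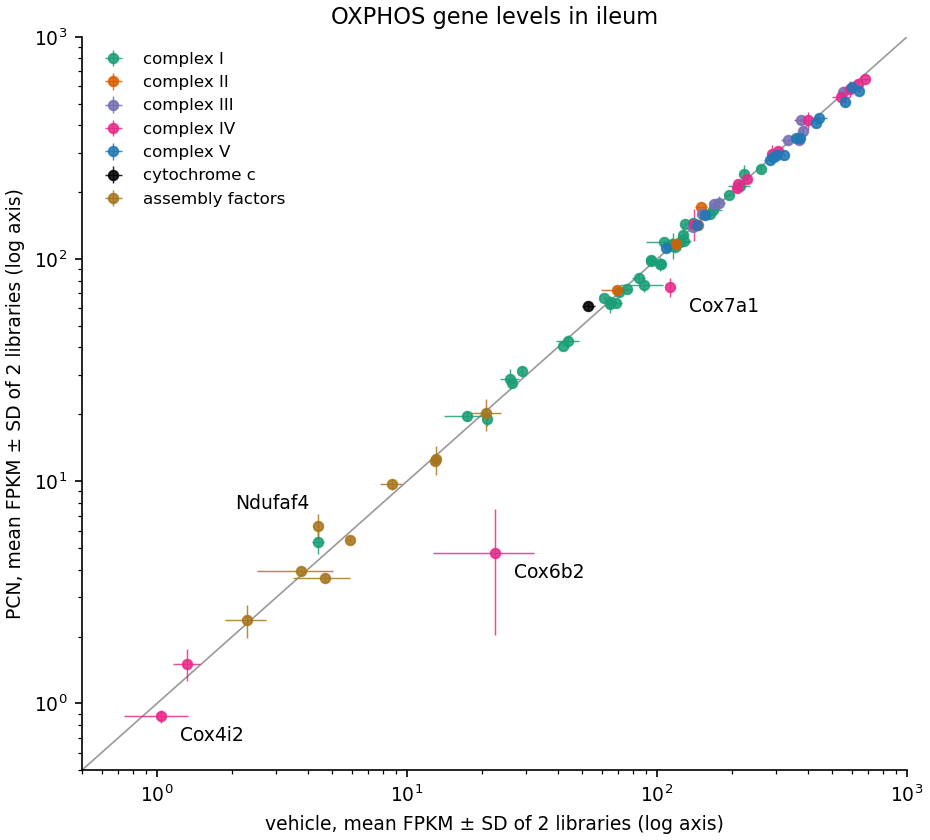
Mean level of each oxidative phosphorylation gene in vehicle (x axis) and PCN (y axis) libraries, in FPKM on log axes, with bars for the SD of 2 libraries and colours for the complexes. The grey line marks equal levels. Cox8b is not drawn because it is listed at 0 in both PCN libraries. Most genes lie on the line, and Cox7a1 (112 and 74.96 FPKM) and Cox6b2 (22.5 and 4.77 FPKM) lie below it.

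Levels differed by complex. The median gene had 97.7 FPKM in complex I, 131 FPKM in complex II, 339 FPKM in complex III, 222 FPKM in complex IV and 331 FPKM in complex V, while the assembly factors had a median of 5.68 FPKM. Cox8a, the small complex IV subunit VIII of most tissues, was the most abundant with a mean of 660 FPKM. The summed level of complex I was 3606 and 3632 FPKM in vehicle and 3685 and 3563 FPKM in PCN. For complex IV it was 4460 and 4291 FPKM in vehicle and 4446 and 4108 FPKM in PCN. The groups overlapped for complexes I to IV, and the log2 ratios of the group means ran from −0.03 for complex IV to 0.05 for complex II.

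Complex V was the exception in position. Its sum was 5018 and 5019 FPKM in vehicle and 4853 and 4692 FPKM in PCN, a log2 ratio of −0.07. Both PCN libraries were below both vehicle libraries, and the two-sided exact permutation test gave p = 0.333, the smallest p that 2 against 2 libraries allow. Scaling the libraries to equal totals brought this ratio to −0.02.

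**Figure D2:**
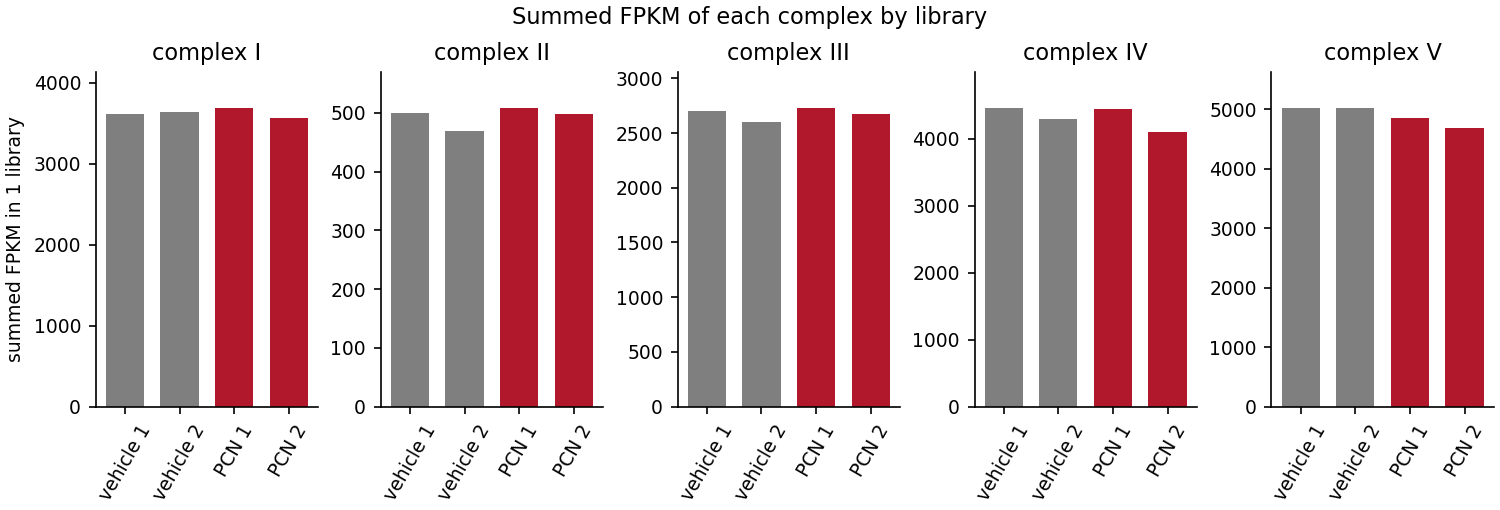
Summed FPKM of the genes of each complex in each of the 4 libraries (vehicle grey, PCN red), on linear axes from 0 that differ between complexes. The bars of complexes I to IV overlap between groups, and those of complex V are 5018 and 5019 FPKM in vehicle against 4853 and 4692 FPKM in PCN.

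A shared sequence feature not used by the rule was looked for in the promoters. The 250 bases before the RefSeq gene start (GRCm38.p6, the assembly also called mm10) gave a window for 75 of the 89 genes. In these windows 6 motifs were searched on both strands. The letters GCATGCGC, the core of the site of NRF1, a factor known to bind promoters of respiratory chain genes, were found in 9 of the 75 windows (12%), in 2.56% of all 27025 RefSeq genes and in 4.97% of the 8820 genes that are also in the expression table. For the ETS, Sp1 and E-box letters the direction depended on which genes were set beside the 75. The CCAAT letters were more frequent in the 75 windows than in both comparison sets, and the TATA letters less frequent. The ETS letters CCGGAAGT were in 4% of the 75 windows, in 3.23% of all genes and in 6.71% of the genes in the table. The TATA letters TATAAA were in 6.67%, 14.3% and 8.14%, and the Sp1 letters GGGCGG in 38.7%, 35.4% and 63.5%. CCAAT was in 45.3%, 37.5% and 40.2%, and the E-box CANNTG in 64%, 69.3% and 62.0%. A match describes these letters and is no evidence of binding.

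The windows of 30 bases around the NRF1 letters, in capitals, are shown for 4 of the 9 genes, picked after their values were seen to span higher and lower levels in PCN. They lie at chr6:50566611-50566640 on the minus strand (Cycs), chr4:24897961-24897990 on the plus strand (Ndufaf4), chr4:140961206-140961235 on the plus strand (Sdhb) and chr5:108434429-108434458 on the minus strand (Atp5k), and are written 5′ to 3′ on the strand of the gene.
Cycs: catgctagctcGCATGCGCgcgcacaaacc
Ndufaf4: cagatgtctgcGCATGCGCctgtgcggaag
Sdhb: aagcccagtggGCATGCGCcctacgggccg
Atp5k: ttcactgcggcGCATGCGCctttctggctt
The 9 genes did not share a direction. Their log2 differences ran from −0.15 (Atp5k) to 0.43 (Ndufaf4), with 4 above 0 and 5 below, and none was called by limma. In the RefSeq windows the letters began 60 bases before the start in Cycs, 111 in Ndufaf4, 54 in Sdhb and 48 in Atp5k. In another annotation, GENCODE, the gene starts are chr4:140961203 for Sdhb and chr5:108434448 for Atp5k. By those starts the letters of Sdhb and Atp5k lie inside the gene, not before it.

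Complex I takes electrons from NADH. Of its 36 genes, 9 were higher and 7 lower in both PCN libraries than in both vehicle libraries, beside 21.1% and 19.1% of all tested genes. The median log2 difference of the complex was −0.0089. The 7 core subunits, which carry the flavin and the iron-sulfur clusters, had a median of 0.04 and the 29 accessory subunits one of −0.01. Differences over the complex ran from −0.20 to 0.23.

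The most abundant complex I genes were accessory subunits. Ndufb9 had 261 and 259 FPKM in vehicle and 259 and 249 FPKM in PCN, with overlapping groups and a log2 difference of −0.03. Ndufa6 had 222 and 222 FPKM in vehicle and 257 and 224 FPKM in PCN. Its PCN libraries were both higher, but the gap rested mainly on replicate 1, and the log2 difference of 0.11 (SE 0.085) had a limma adjusted p of 0.731. Ndufa1, an X-linked membrane subunit, had 199 and 229 FPKM in vehicle and 218 and 207 FPKM in PCN, again overlapping.

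Among the core subunits the levels spread widely. Ndufv2, which holds a cluster in the NADH-binding arm, had the highest mean at 113 FPKM, with 108 and 115 FPKM in vehicle and 113 and 115 FPKM in PCN. Ndufs8, a core subunit with a pair of iron-sulfur clusters, was the lowest gene of the complex, with 4.57 and 4.24 FPKM in vehicle and 4.88 and 5.82 FPKM in PCN. Both PCN values were higher, and its log2 difference of 0.23 (SE 0.16, limma adjusted p = 0.720) was the highest of the complex. Ndufs1, the large iron-sulfur subunit that receives electrons early in the complex, had 28.9 and 28.5 FPKM in vehicle and 32.4 and 30.01 FPKM in PCN. Ndufs3 showed the same position, with 61.7 and 60.9 FPKM against 65.5 and 67.5 FPKM. Of the 7 core subunits, 4 had a log2 difference above 0 and 3 below.

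The accessory subunits with the highest log2 differences among genes averaging 5 FPKM or more were Ndufb4 (0.18), Ndufs5 (0.17) and Ndufa5 (0.15). Ndufb4 had 19.8 and 15.01 FPKM in vehicle and 20.4 and 19.0 FPKM in PCN. Ndufs5 had 118 and 95.4 FPKM in vehicle and 118 and 121 FPKM in PCN, and Ndufa5 had 24.2 and 27.4 FPKM in vehicle and 31.0 and 26.8 FPKM in PCN. In each of them the distance between the single vehicle libraries was larger than the difference of the group means, which are unlike measures. The lowest were Ndufb11 (−0.20), Ndufc1 (−0.13) and Ndufa11 (−0.12). Ndufb11, also X-linked, had 76.3 and 100 FPKM in vehicle and 79.8 and 72.3 FPKM in PCN, so its groups overlapped. Ndufc1 had 107 and 99.7 FPKM in vehicle and 94.2 and 95.2 FPKM in PCN, and Ndufa11 had 21.1 and 20.7 FPKM against 20.0 and 18.2 FPKM. Both were lower in PCN without overlap, and their limma adjusted p were 0.678 and 0.744. Ndufb10, a membrane arm subunit, was higher without overlap at 131 and 129 FPKM in vehicle and 146 and 140 FPKM in PCN, a log2 difference of 0.14 with a limma adjusted p of 0.591.

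Complex II, succinate dehydrogenase, is also an enzyme of the citric acid cycle and has 4 genes. Sdhd, one of its membrane anchors, had 156 and 144 FPKM in vehicle and 172 and 172 FPKM in PCN. Both PCN libraries were higher, with means of 150 ± 8.69 and 172 ± 0.0656 FPKM (SD, n = 2) and a log2 difference of 0.20 (SE 0.071, 95% interval 0.012 to 0.38), but the adjusted p in limma was 0.502. Sdhc, the other anchor, had 76.0 and 62.5 FPKM in vehicle and 72.0 and 72.3 FPKM in PCN, which overlapped. The catalytic subunits overlapped too. Sdha, the flavoprotein, had 123 and 115 FPKM in vehicle and 119 and 114 FPKM in PCN, and Sdhb, the iron-sulfur subunit, had 144 and 148 FPKM in vehicle and 145 and 139 FPKM in PCN.

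Complex III passes electrons from quinol to cytochrome c. Its most abundant gene was Uqcrh, the hinge subunit next to cytochrome c1, with 554 and 554 FPKM in vehicle and 588 and 544 FPKM in PCN. Uqcrb, a small subunit at the quinone-binding end, had 389 and 363 FPKM in vehicle and 411 and 431 FPKM in PCN. Its PCN libraries were both higher and its log2 difference of 0.16 (SE 0.069, limma adjusted p = 0.558) was the highest of the complex. Uqcrq, another small subunit, was the lowest at −0.11, with 378 and 364 FPKM in vehicle and 350 and 336 FPKM in PCN. Uqcr11 had 379 and 387 FPKM in vehicle and 388 and 364 FPKM in PCN.

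The catalytic and core genes of complex III had log2 differences between −0.0034 and 0.07. Uqcrfs1, the Rieske iron-sulfur protein, had 155 and 147 FPKM in vehicle and 158 and 159 FPKM in PCN. Cyc1, cytochrome c1, had 184 and 168 FPKM in vehicle and 170 and 189 FPKM in PCN. The core proteins Uqcrc1 and Uqcrc2 had log2 differences of 0.07 and −0.0034. Cycs, the soluble cytochrome c that carries electrons to complex IV and also takes part in apoptosis, had 55.3 and 51.0 FPKM in vehicle and 60.2 and 62.8 FPKM in PCN. PCN was the higher group without overlap, and the log2 difference of 0.21 (SE 0.081) had a 95% interval that reached from just below 0 to 0.42 and a limma adjusted p of 0.536.

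Complex IV, cytochrome c oxidase, held the genes with the largest differences by size. The 9 subunits found in most tissues had a median log2 difference of −0.0067 and ran from −0.08 to 0.07. Cox8a had 696 and 660 FPKM in vehicle and 648 and 636 FPKM in PCN. Cox6c had 640 and 637 FPKM in vehicle and 636 and 588 FPKM in PCN, and Cox6a1 had 607 and 577 FPKM in vehicle and 616 and 548 FPKM in PCN. Cox8a and Cox6c were lower without overlap by small margins, and Cox6a1 overlapped. Cox7c had 433 and 368 FPKM in vehicle and 447 and 393 FPKM in PCN, which also overlapped.

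The isoforms typical of other tissues had lower values in PCN where they were measured above the filter. Cox7a1, the form of subunit VIIa known from heart and skeletal muscle and from brown fat, had 111 and 114 FPKM in vehicle and 80.1 and 69.8 FPKM in PCN. The groups were apart, with PCN the lower. The means were 112 ± 1.78 FPKM and 74.96 ± 7.25 FPKM (SD, n = 2), the log2 difference was −0.58 (SE 0.090, 95% interval −0.81 to −0.35) and the adjusted p in limma was 0.144, which does not pass the threshold. Cox7a2, the form of most tissues, had 213 and 208 FPKM in vehicle and 218 and 215 FPKM in PCN, a log2 difference of 0.04. Cox7a1 thereby made up 34.3% and 35.3% of the pair in vehicle and 26.8% and 24.5% in PCN, a share whose exact permutation p cannot go below 0.333 with these libraries. Cox7a2l, a related protein that joins complexes III and IV into supercomplexes, had 139 and 142 FPKM in vehicle and 161 and 127 FPKM in PCN and overlapped.

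Cox6b2, the form of subunit VIb known from testis, was the lowest of all 87 genes by log2 difference. It had 15.6 and 29.4 FPKM in vehicle and 6.71 and 2.83 FPKM in PCN, means of 22.5 ± 9.75 and 4.77 ± 2.74 FPKM (SD, n = 2). The groups did not overlap, and the log2 difference was −2.05 (SE 0.44, 95% interval −3.17 to −0.92) with an adjusted p in limma of 0.237. One of the 6 transcripts of the gene was above 0 only in vehicle replicate 2. Without that transcript the values were 15.6, 14.1, 6.71 and 2.83 FPKM and the log2 difference was −1.54 (limma adjusted p = 0.253). This sum still held a transcript at 2.01 and 0.847 FPKM in vehicle and 3.22e-05 FPKM or less in PCN. Transcripts were listed when their larger group mean exceeded 1 FPKM, so that transcript was kept through vehicle alone. The reduced sum is therefore still tilted towards lower values in PCN. Cox6b1, the common form, had 579 and 512 FPKM in vehicle and 564 and 508 FPKM in PCN, so Cox6b2 was 2.62% and 5.43% of the pair in vehicle and 1.18% and 0.554% in PCN. The other isoforms were at the low end of the table. Cox8b, known from muscle and brown fat, was 3.36 FPKM in vehicle replicate 2 and listed at 0 in the other 3 libraries, and Cox4i2, known from lung, was between 0.826 and 1.25 FPKM in all 4. Both were listed only through their vehicle means (1.68 and 1.04 FPKM), so their lower PCN means follow from that filter.

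**Figure D3:**
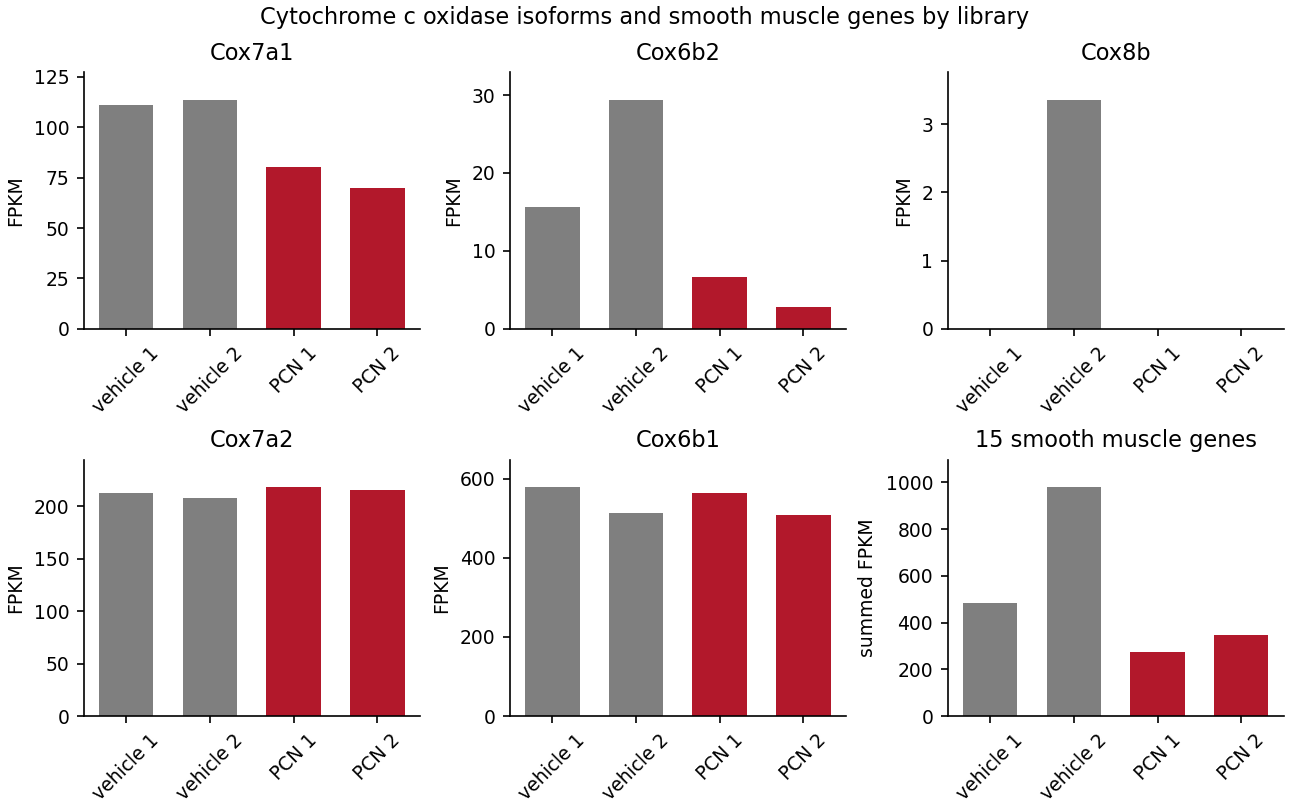
Level in each library (vehicle grey, PCN red) of the complex IV isoforms Cox7a1, Cox6b2 and Cox8b, of the common forms Cox7a2 and Cox6b1, and of the sum of 15 smooth muscle genes, in FPKM on linear axes from 0. Cox7a1 is 111 and 114 FPKM in vehicle and 80.1 and 69.8 FPKM in PCN, while Cox7a2 stays between 208 and 218 FPKM. Cox8b was listed only because its vehicle mean exceeded 1 FPKM, so its direction is no result.

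Markers of other cell types differed between the groups in both directions. All 15 smooth muscle genes had a negative log2 difference (median −0.94), and 12 of them were lower in both PCN libraries, beside 19.1% of all tested genes. None was called by limma, and 11 of 15 were lower at an unadjusted p under 0.05, beside 4.11% of all tested genes. Their sum in vehicle was 483 FPKM in replicate 1 and 980 FPKM in replicate 2. A smooth muscle score, the mean log2(FPKM + 1) of these genes, was 4.12 and 5.03 in vehicle and 3.43 and 3.65 in PCN. With this score added to the limma model, the log2 difference was −0.60 for Cox7a1 (adjusted p = 0.625) and −1.38 for Cox6b2 (adjusted p = 0.826). Because the score itself separated the groups, this fit cannot tell treatment and smooth muscle content apart. Of 8 fat genes 5 were measured, with sums of 43.3 and 119 FPKM in vehicle and 36.2 and 51.9 FPKM in PCN, which overlapped, among them Adipoq, the fat cell hormone adiponectin, at 1.47 and 6.30 FPKM in vehicle and 0.397 and 1.31 FPKM in PCN. Plin1, Plin4 and Lep of that list, both brown fat genes (Ucp1 and Cidea) and 6 of 7 striated muscle genes were not analysed here. The remaining striated muscle gene, Ckm, was 1.70 FPKM in vehicle replicate 2 and 0.315 to 0.471 FPKM in the others, and was listed only through its vehicle mean. The plasma cell genes Jchain and Mzb1 were higher in PCN without overlap, at log2 differences of 0.42 and 0.47 (limma adjusted p 0.141 and 0.293). The part of these cell types in the isoform differences was not tested.

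The promoters of the Cox7a pair are shown because the forms took different positions between the groups. The 250 bases before the RefSeq start lie at chr7:30183921-30184170 on the plus strand for Cox7a1 and at chr9:79759854-79760103 on the minus strand for Cox7a2 (GRCm38.p6), written 5′ to 3′ on the strand of the gene with matches to any of the 6 motifs in capitals.
Cox7a1: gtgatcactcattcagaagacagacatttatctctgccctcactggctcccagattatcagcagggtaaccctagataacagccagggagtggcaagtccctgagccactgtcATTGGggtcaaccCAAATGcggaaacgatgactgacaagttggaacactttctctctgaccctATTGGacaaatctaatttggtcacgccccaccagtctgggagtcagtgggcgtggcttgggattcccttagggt
Cox7a2: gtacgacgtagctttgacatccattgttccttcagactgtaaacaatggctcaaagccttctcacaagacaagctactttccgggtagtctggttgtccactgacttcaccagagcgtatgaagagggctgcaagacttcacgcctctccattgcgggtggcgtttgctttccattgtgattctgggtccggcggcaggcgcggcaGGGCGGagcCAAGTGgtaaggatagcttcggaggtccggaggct
The Cox7a1 window held CCAAT letters at 2 places and 1 E-box and no Sp1 letters. The Cox7a2 window held the Sp1 letters once and 1 E-box, with no CCAAT letters. Neither held the NRF1, ETS or TATA letters.

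Ndufa4, once counted with complex I and now known as a subunit of complex IV, kept its summed level, at 287 and 287 FPKM in vehicle and 317 and 278 FPKM in PCN. Its transcripts took different shares. The most abundant one made up 90.5% and 89.9% of the gene in vehicle and 78.3% and 83.2% in PCN. The second had 21.3 and 21.6 FPKM in vehicle and 55.8 and 39.8 FPKM in PCN, or 7.42% and 7.50% against 17.6% and 14.3% of the gene. Its values did not overlap between groups, and the log2 difference was 1.10 (SE 0.18), with a limma adjusted p of 0.258 over 18397 transcripts. Ndufa4l2, a related gene known to respond to low oxygen, was between 1.21 and 1.68 FPKM in all libraries.

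**Figure D4:**
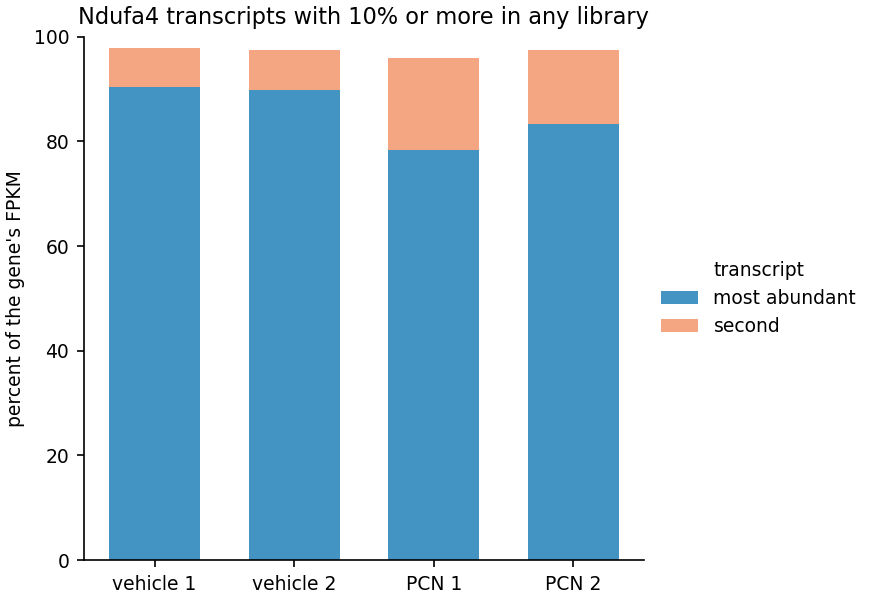
Share of the summed FPKM of Ndufa4 taken by its most abundant (blue) and second transcript (orange) in each of 4 libraries, in percent. The second transcript is 7.42% and 7.50% in vehicle and 17.6% and 14.3% in PCN, and the space above the bars belongs to the remaining transcripts.

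Single transcripts of the oxidative phosphorylation genes gave no call. Of 166 tested, those of Ndufa4 included, none passed the adjusted p in limma and 16 had an unadjusted p under 0.05. Among all 18397 tested transcripts 1 was called and 1627 were at that unadjusted p. For 73 of the 89 genes a single transcript reached 10% of the gene in any library, and 16 genes had more than one. In some of these the shares overlapped between groups, as in Atp5g3, whose lesser transcript was 28.9% and 24.7% in vehicle and 28.9% and 27.1% in PCN. Atp5j and Ndufaf3 are examples whose shares did not overlap. In Atp5j, coupling factor 6 of complex V, the lesser transcript made up 12.2% and 12.5% of the gene in vehicle and 7.94% and 9.19% in PCN. In Ndufaf3, an assembly factor of complex I, the lesser share was 38.8% and 35.3% in vehicle and 29.5% and 27.1% in PCN. These shares are estimates that divide reads common to several transcripts.

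Complex V, the ATP synthase, had 12 of 14 genes with a log2 difference below 0 and a median of −0.04, which was 0.02 with the libraries scaled to equal totals. Groups did not overlap for 6 genes, 5 lower and 1 higher in PCN, beside 19.1% lower and 21.1% higher over all tested genes. Atp5g3, a gene for the c-ring that turns as protons pass, had 633 and 648 FPKM in vehicle and 573 and 564 FPKM in PCN. Both PCN libraries were lower, with means of 641 ± 10.6 and 568 ± 6.76 FPKM (SD, n = 2) and a log2 difference of −0.17 (SE 0.060, 95% interval −0.33 to −0.018, limma adjusted p = 0.480). Atp5g1, which encodes the same mature c subunit, had 109 and 107 FPKM in vehicle and 113 and 110 FPKM in PCN. Its share of the pair was 14.7% and 14.2% in vehicle and 16.5% and 16.4% in PCN.

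The other lower genes of complex V belonged to the stalk, the membrane part and the catalytic head. Atp5k, subunit e, by which the synthase forms dimers, had 547 and 583 FPKM in vehicle and 525 and 491 FPKM in PCN, a log2 difference of −0.15 with a limma adjusted p of 0.593. Atp5o, the stalk protein OSCP that holds the head in place, had 325 and 322 FPKM in vehicle and 298 and 289 FPKM in PCN, a log2 difference of −0.14 with a limma adjusted p of 0.566. The head subunits Atp5a1 and Atp5d were also lower without overlap, at −0.08 and −0.09. Atp5b, the catalytic beta subunit, had 623 and 576 FPKM in vehicle and 599 and 587 FPKM in PCN and overlapped. The positive differences were those of Atp5g1 (0.05) and Atp5f1, the peripheral stalk subunit b (0.03), which had 160 and 151 FPKM in vehicle and 152 and 164 FPKM in PCN. Atp5h, also of the stalk, differed by −0.01, with 290 and 292 FPKM in vehicle and 290 and 287 FPKM in PCN.

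**Figure D5:**
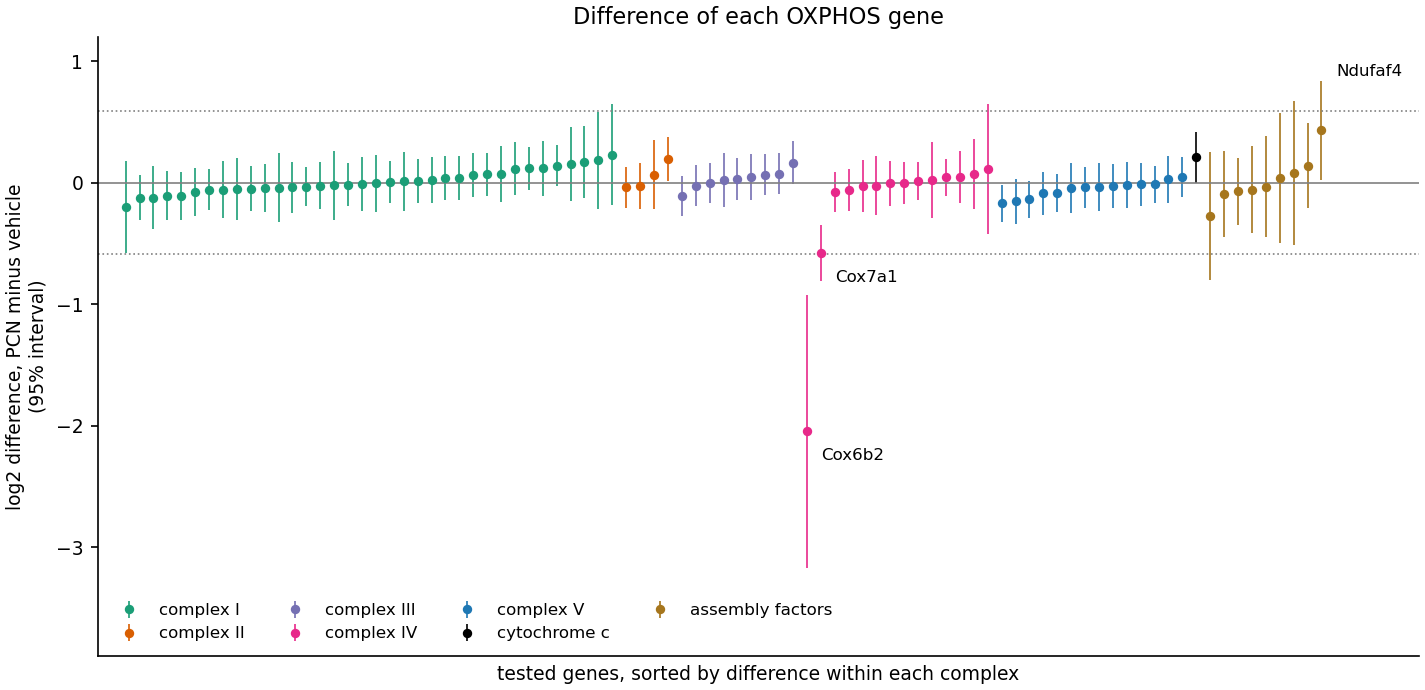
Log2 difference (PCN minus vehicle, log2(FPKM + 1) scale) of the 87 tested genes with 95% intervals from limma, grouped by complex in colour and sorted within each group. Dotted lines mark a 1.5-fold change, and 80 intervals lie between them. Cox7a1 (−0.58) and Cox6b2 (−2.05) stand below the other genes, and Ndufaf4 (0.43) is the highest.

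The assembly factors were low in level and spread more. Ndufaf4, which is needed to build complex I, had 4.43 and 4.39 FPKM in vehicle and 5.73 and 6.91 FPKM in PCN. Both PCN libraries were higher, with means of 4.41 ± 0.0295 and 6.32 ± 0.834 FPKM (SD, n = 2), and the log2 difference of 0.43 (SE 0.16, 95% interval 0.024 to 0.84, limma adjusted p = 0.502) was the highest of the 87 genes. Ndufaf1, a partner in the early assembly intermediate, had 8.07 and 9.32 FPKM in vehicle and 10.1 and 9.28 FPKM in PCN. Ndufaf2 had 22.8 and 18.5 FPKM in vehicle and 22.5 and 17.9 FPKM in PCN, and Ndufaf3 had 13.2 and 12.6 FPKM against 12.1 and 12.4 FPKM. Atp5sl, named after the ATP synthase but known to act in complex I assembly, had 12.8 and 13.3 FPKM in vehicle and 13.9 and 11.3 FPKM in PCN. Ndufaf7, a methyltransferase that acts on a complex I subunit, had 5.99 and 5.81 FPKM against 5.57 and 5.35 FPKM. The median of the 9 was −0.03, with 1 gene higher and 3 lower without overlap, beside 21.1% and 19.1% of all tested genes.

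Genes of neighbouring steps outside the name rule gave no calls either. Of 45 further assembly factors tested, 0 were called by limma and the median log2 difference was 0.0094. The most abundant were Cox17, a copper chaperone of complex IV, with 185 and 178 FPKM in vehicle and 201 and 175 FPKM in PCN, and Higd2a, which joins complex IV, with 162 and 163 FPKM in vehicle and 179 and 170 FPKM in PCN. Of 14 citric acid cycle genes 0 were called, with a median of −0.01. Cs, citrate synthase, the most abundant of them, had 210 and 198 FPKM in vehicle and 180 and 185 FPKM in PCN, a log2 difference of −0.16 (limma adjusted p = 0.560), and Mdh2, malate dehydrogenase, had 207 and 189 FPKM in vehicle and 172 and 195 FPKM in PCN. Among the 9 genes of ATP and phosphate exchange 0 were called and the median was −0.06, with 7 of 9 below 0. Slc25a5, an exchanger of ADP and ATP, had 1147 and 1135 FPKM in vehicle and 1090 and 986 FPKM in PCN, and Atpif1, an inhibitor of the reverse reaction of complex V, had 476 and 443 FPKM against 435 and 392 FPKM. The 17 measured regulators of mitochondrial gene expression gave 0 calls and a median of 0.03. Esrra, a nuclear receptor that acts on respiratory chain genes, was their most abundant, with 68.0 and 74.9 FPKM in vehicle and 79.8 and 74.8 FPKM in PCN. Ppargc1a, the coactivator PGC-1α of mitochondrial gene programmes, named here after its values were seen, had 9.15 and 3.46 FPKM in vehicle and 2.69 and 1.89 FPKM in PCN. Its groups did not overlap, the vehicle libraries differed widely, and the log2 difference was −1.04 (SE 0.42, limma adjusted p = 0.547). The subunit mt-Nd5, the only mitochondrially encoded one analysed, had 161 and 171 FPKM in vehicle and 171 and 165 FPKM in PCN. Over these lists the counts of genes at an unadjusted p under 0.05 were 3 for the assembly factors, 1 for the citric acid cycle, 0 for the exchange genes and 0 for the regulators. The share among all tested genes was 9.36%.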

How the data were processed

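Ileum libraries of mice given vehicle or PCN, 2 per group, were grouped by the labels. The authors deposited FPKM per transcript, on mm10 by the submitters' processing notes. The methods of the study describe another tissue, kit and genome, and for this table the aligner and estimating program are not given in the sources used here. Only protein-coding transcripts whose larger group mean exceeded 1 FPKM were in the table. Read depth was not used, and 0 columns lacked a matching sample.

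Transcript FPKM were added up for each symbol. A linear model in limma (version 3.58.1, run in R 4.3.3) compared log2(FPKM + 1) between groups for all genes averaging 1 FPKM or more, with a variance trend and no replicate block, and Benjamini-Hochberg adjusted p-values were held to 0.05. The pseudocount of 1 understates changes of low genes. The function was tested on simulated data. Sums were compared by exact permutation over libraries. Alternatives were other pseudocounts, filters and scalings, a replicate block, a smooth muscle covariate, single transcripts, no trend and leaving out each library.

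The genes and lists were chosen with earlier results of these data known. Values in each library were given for genes past the threshold, the 3 most abundant of each complex, the 3 highest and 3 lowest differences per complex among those averaging 5 FPKM or more, genes under 1 FPKM in any library, isoform families, and a few subunits picked afterwards for their role or position. Of the 179 transcripts, 21 shared a value to every digit with another gene, 19 of them under 10 FPKM.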

Additional observations from a re-analysis of the deposited data

How the results depend on the processing

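The count of called oxidative phosphorylation genes was 0 in limma under all 14 alternatives (1 to 8 at an unadjusted p under 0.05). The count over all genes, 15, became 9 with a pseudocount of 0.1, 56 with a mean of at least 5 FPKM, 37 with equal totals, 1 on single transcripts, 2 without the trend, 0 with the smooth muscle covariate (779 at an unadjusted p under 0.05) and 0 to 20 with a library left out (20 without vehicle replicate 1 and 0 without each of the others, which gave 851, 783 and 772 genes at an unadjusted p under 0.05). With the replicate block it was 60, and 0 of the 87 genes. The numbers were not shown to pair the libraries, since the deviations of same-numbered libraries correlated at 0.034 over 11103 genes.

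Equal totals moved the median of all genes to 0.0519 (log2), that of the 87 genes to 0.0428, and those of complexes I, III, IV and V to 0.0467, 0.0855, 0.0504 and 0.0179. It moved the summed log2 ratio to 0.0282 for all, 0.0550 for complex I, 0.103 for II, 0.0786 for III and −0.0199 for V. The smooth muscle covariate gave medians of −0.0806, −0.0167, −0.0890 and −0.107 for complexes II, III, IV and V, and single transcripts gave 0.0837 for complex II. With a library left out, the medians ran from −0.0342 to 0.02003 for all 87 genes, −0.0225 to 0.0237 for complex I, −0.0473 to 0.111 for II, −0.0109 to 0.0865 for III, −0.0908 to 0.0302 for IV and −0.0794 to −0.0253 for V, and the summed ratio of complex V from −0.0970 to −0.0485. The medians of complexes I to IV thus changed sign between settings, and that of complex V did so only with equal totals.

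Of 45 named genes tested, 24 had another sign under 1 or more of the 14 alternatives and 21 under none. Cox7a1 ran from −0.68 to −0.48 (limma adjusted p 0.083 to 0.625) and Cox6b2 from −2.55 to −1.38 (0.076 to 0.826), neither past the threshold. For Cox6b2 the sum without 1 transcript was an alternative added after seeing the data. Atp5g3, Sdhd, Ndufaf4, Cycs and Uqcrb also kept their sign in all 14. With 2 libraries a group, small differences cannot be resolved.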
